A study of Mus musculus with 4 samples.

Results

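Transfer RNA (tRNA) genes of the mouse autosomes were examined for peaks of a tagged thyroid hormone receptor, GS-TRa1, in striatal chromatin. The members are the 386 autosomal genes that RefSeq's GRCm38.p6 table lists as tRNA with a symbol starting n-T, of 430 tRNA genes in all. Each was taken with 1 kb on both sides. The letter after n-T is the amino acid and the next 3 letters are the anticodon, so n-TGgcc3 is a glycine gene with the anticodon GCC. The series has 3 IP fractions, pulled down on IgG-coated magnetic beads, and 1 input without antibody. All come from striatum. The title names Gad2Cre x ThraGS animals, and the IP is of the GS tag on the receptor isoform TRa1. Libraries were prepared for the Ion Proton system, per the labels' protocols. Gad2 is a gene of GABAergic neurons, which make up most of the striatum. Neither the age and number of the animals, nor any treatment, nor whether the fractions came from separate animals is stated in the labels. The deposited data are 1 list of 7484 peaks, 7412 of them on autosomes. It has no value per library, so no spread between fractions and no test can be given. No IP from untagged animals was analysed here, so recovery by the beads alone was not separated from the receptor's. A peak list does not measure expression, so cell type markers could not be checked.

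tRNA genes are transcribed by RNA polymerase III, which also makes 5S ribosomal RNA, 7SL RNA and 7SK RNA. Their promoter lies inside the gene. The factor TFIIIC binds 2 short elements there, box A and box B, and TFIIIB then places the polymerase upstream. In mammals the genes occur in many near-identical copies, often in clusters, and not all copies are active in a given tissue. Thyroid hormone receptors are known for binding pairs of the half-site AGGTCA, most often a direct repeat spaced by 4 bases.

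Whole sequences could be read for 4 members, which lie inside RefSeq promoter windows (build GRCm38.p6, 250 bases before to 50 after the start) of other genes. They are shown because most summits lay on or beside such genes, and because they differ in outcome: n-TRtcg5 has a summit in its window and the other 3 have none. Capitals mark box B, searched on both strands as GGTTC, any base, A, any 2 bases and CC, and the gene is written in the direction in which that match reads.
n-TRtcg5 (chr7:79466419-79466491, + strand): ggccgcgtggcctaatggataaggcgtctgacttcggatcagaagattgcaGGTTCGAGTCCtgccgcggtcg
n-TTagt9 (chr7:35234770-35234843, - strand): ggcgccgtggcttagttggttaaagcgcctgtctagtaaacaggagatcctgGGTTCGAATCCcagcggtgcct
n-TAagc16 (chr13:21222586-21222657, + strand): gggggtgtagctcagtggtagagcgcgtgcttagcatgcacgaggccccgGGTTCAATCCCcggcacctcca
n-TVcac9 (chr13:23446142-23446214, - strand): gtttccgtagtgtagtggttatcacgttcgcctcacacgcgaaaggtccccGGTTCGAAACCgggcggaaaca

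Box B was found in all 4 genes, starting at base 51, 52 or 53, and in 0.794% of all 32851 promoter windows. Box A, by its degenerate consensus, started at base 8 in all 4 and occurred in 34.4% of promoter windows. Both elements are thus present in the gene with a summit and in the 3 without. The window around n-TRtcg5 belongs to Polg, which encodes the catalytic subunit of the mitochondrial DNA polymerase. It is shown because the summit fell between a RefSeq start of Polg and the tRNA gene, 91 bp from n-TRtcg5. It is written in the direction of Polg, so the capitals, bases 33 to 105, show n-TRtcg5 in reverse, and the summit is base 196.
Polg (chr7:79466224-79466523, - strand): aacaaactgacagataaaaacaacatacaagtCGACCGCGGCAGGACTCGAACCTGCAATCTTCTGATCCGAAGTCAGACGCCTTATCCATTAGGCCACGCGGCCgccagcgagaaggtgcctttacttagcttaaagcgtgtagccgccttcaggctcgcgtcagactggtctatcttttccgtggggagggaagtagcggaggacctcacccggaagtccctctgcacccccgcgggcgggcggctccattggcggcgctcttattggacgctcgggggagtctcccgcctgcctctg

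Trmt61b is named for a tRNA methyltransferase, and RefSeq lists it as a long non-coding gene in this build. Its window is shown because it holds the summit that lies 535 bp from the cysteine gene n-TCgca52. Capitals mark the summit, base 276, with 10 bases on both sides.
Trmt61b (chr17:71598712-71599011, - strand): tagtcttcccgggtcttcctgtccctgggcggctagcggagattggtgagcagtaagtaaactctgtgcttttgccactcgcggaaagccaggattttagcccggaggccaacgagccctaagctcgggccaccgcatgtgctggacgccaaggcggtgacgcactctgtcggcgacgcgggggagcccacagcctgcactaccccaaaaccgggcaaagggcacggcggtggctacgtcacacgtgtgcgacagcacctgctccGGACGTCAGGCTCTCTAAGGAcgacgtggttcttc

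AGGTCA, searched on both strands, occurs in neither of these 2 windows. It occurs once in the promoter window of the non-coding gene 6330415G19Rik, which holds the summit 510 bp from n-TRccg2. Of all promoter windows 16.3% hold AGGTCA, and 0.0152% hold it as a direct repeat spaced by 4 bases. These were the 3 of 43 summits that fell in a RefSeq promoter window. Each lay nearer to the start in that window than to its tRNA gene. The sequence at the other summits was not read here.

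A summit lay in the window of 67 of the 386 tRNA genes, 17.4% (95% exact interval 13.7 to 21.5). The same window around other small RNA genes held a summit in 1.72% of 931 snRNA genes, 0.778% of 1286 snoRNA genes, 2.11% of 1136 miRNA genes and 1.64% of 61 rRNA genes. Ends of protein-coding genes were both ends of the span, so starts and ends of transcription are pooled. Windows there of the median tRNA window's length held one in 3.60% of 41322 cases. For consecutive windows of that length over the autosomes the share was 0.628%. The share of tRNA genes was therefore above that of each of these kinds of window, with exact intervals that did not overlap. Whole protein-coding genes with 1 kb on both sides reached 17.3% and lncRNA genes 7.16%, in windows that are far longer. Intervals here cover counting error only, genes are not replicates, and no test was made. Clustered genes share summits, so the count of genes is larger than that of summits.

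The windows held 43 distinct summits, 0.580% of the autosomal peaks. Of these, 22 lay in the window of 1 gene and 21 in windows of 2 to 4 neighbouring genes. Among the genes with a summit, 59 had 1 and 8 had 2.

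Summits were concentrated on the tRNA genes themselves. Of the 43, 20 lay inside a gene, which is 70 to 107 bp long, and 34 (79.1%) lay inside or within 100 bp. The gene spans cover 28.8 kb in all and held 694 summits per Mb (exact Poisson interval 424 to 1072). The 100 bp on both sides held 182 per Mb (99.5 to 305) and the bases from 101 to 250 bp held 37.4 per Mb (10.2 to 95.9). From 1001 to 5000 bp the density was 5.21 per Mb (2.25 to 10.3), against 3.09 per Mb over the autosomes.

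Protein-coding gene ends, again both ends of the span pooled and taken with 36 bp on both sides, held 34.5 summits per Mb at the end itself. The next 100 bp held 35.0 per Mb. The spans of snRNA, snoRNA and miRNA genes held 5.72 per Mb (0.693 to 20.7) and their next 100 bp 10.6 per Mb. From 101 bp outward the intervals of the tRNA genes overlapped those of both other kinds. In steps of 100 bp, the counts beyond 100 bp were 3, 1, 1, 0 and 4, and then 0 out to 1000 bp. Summits beside the genes were split between the lower-coordinate side, with 11, and the higher-coordinate side, with 12. The strand of the genes is not in the table, so upstream and downstream could not be told apart.

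**Figure D1:**
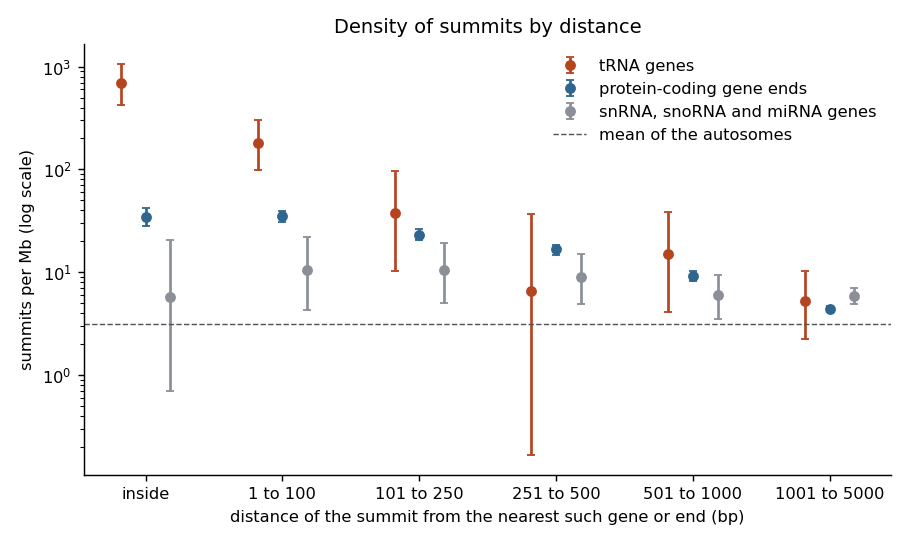
Summits per Mb (log scale) by distance in bp from the nearest tRNA gene, protein-coding gene end or other small RNA gene, with 95% exact Poisson intervals and the autosomal mean as a dashed line. The tRNA genes stand at 694 per Mb inside the gene and 182 per Mb in the next 100 bp, and have intervals that overlap those of the other kinds from 101 bp outward.

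The peaks on tRNA genes were low within the list. The pileup at the summit, the authors' scaled count of stacked fragments, had a median of 17.84 in tRNA windows (quartiles 15.02 and 20.66), against 21.6 for the 7369 other autosomal peaks (16.9 and 31.93). A pileup above the median of the other peaks was reached by 9 of 43, and one above their upper quartile by 1. Fold enrichment over the local background had a median of 5.74, against 6.91, and the peaks had a median width of 207 bp, against 260 bp. The 20 peaks with a summit inside a gene were the narrowest set, with a median of 190 bp, and their pileups ran from 11.27 to 31.93. The 9 peaks with a summit more than 100 bp away had a median pileup of 19.72 and a range of 15.02 to 153.1.

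Low height bears on how firmly the summits were called. A −log10 q of at least 10 was reached by 8 of 43 peaks in tRNA windows (18.6%), against 53.5% of other autosomal peaks. With these stronger peaks only, 2 summits lay inside tRNA genes, 69.4 per Mb (exact Poisson interval 8.40 to 251), and 3 within the next 100 bp, 39.0 per Mb. The autosomes then held 1.64 per Mb and the protein-coding gene ends 20.1 per Mb, which lies inside the tRNA interval.

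**Figure D2:**
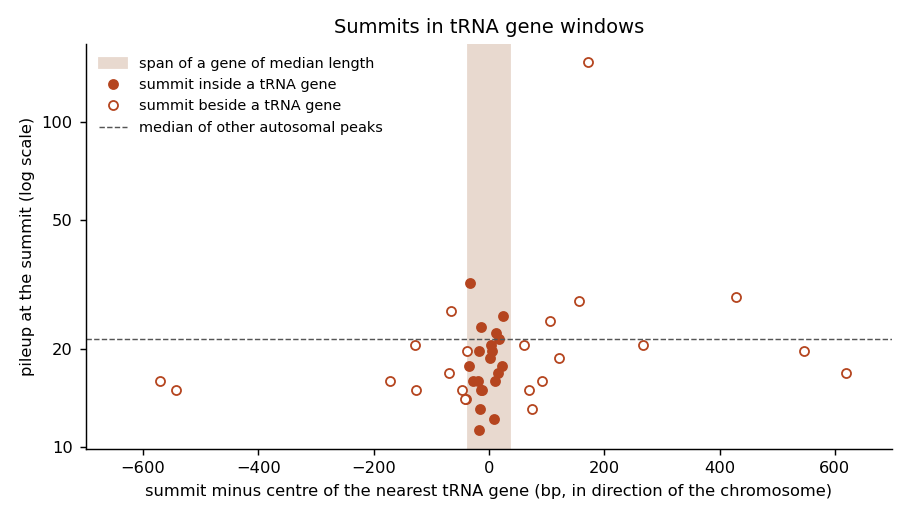
Pileup at each of the 43 summits (log scale) against its distance in bp from the centre of the nearest tRNA gene, filled where the summit is inside the gene. Filled points sit between 11.27 and 31.93, and the point at 153.06 is the summit beside n-TGgcc3.

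**Figure D3:**
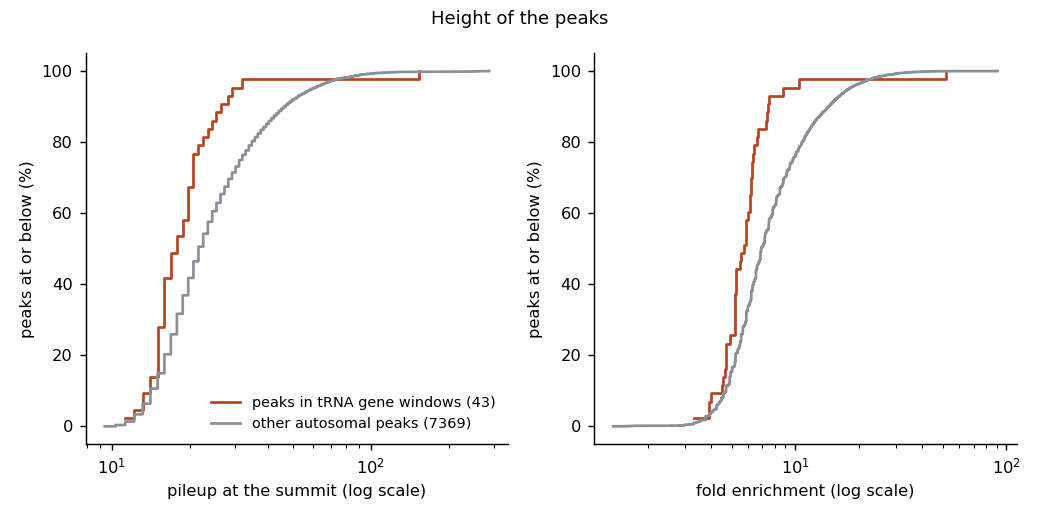
Cumulative share of peaks by pileup (left) and by fold enrichment (right), both on log axes, for the 43 peaks in tRNA gene windows and the 7369 other autosomal peaks. The tRNA curve lies to the left over most of its range, with medians of 17.84 against 21.6 in pileup and 5.74 against 6.91 in fold.

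The highest peak of the set was at n-TGgcc3, a lone glycine gene at chr1:74816747-74816817, with a pileup of 153.06 and a fold of 51.9. Its summit was outside the gene, 137 bp beyond its upper end and 12778 bp from Wnt10a, the nearest protein-coding gene end. It ranked 17th by pileup among the autosomal peaks, and the next in the set ranked 1740th. That next peak had its summit inside n-TWcca5, a lone tryptophan gene at chr11:61407916-61407987, with a pileup of 31.93. Its fold was 5.49 over a local background of 5.0, where the lowest background of the list was 1.89.

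The serine gene n-TScga2 on chromosome 10 had a pileup of 29.11 and a fold of 10.4. Its summit was 388 bp from the tRNA gene and 249 bp from an end of Smarcc2, which encodes a subunit of the BAF chromatin remodelling complex. The phenylalanine gene n-TFgaa6 on chromosome 19 had a pileup of 28.17 at 121 bp. The summits at n-TGgcc3, n-TScga2 and n-TFgaa6 thus lay beside the tRNA genes, and that at n-TWcca5 on it.

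The other genes of the 15 with the highest pileup shared their peaks with neighbours. On chromosome 11, 1 summit 26 bp from n-TSgct3, with a pileup of 26.29, lay in the windows of the isoleucine gene n-TIaat4, the threonine gene n-TTagt7, the serine gene n-TSgct3 and the tryptophan gene n-TWcca6. In the next cluster down the chromosome, a summit inside n-TSaga4, with 25.35, lay in the windows of n-TIaat5, n-TSaga4 and n-TTagt8. On chromosome 5 a summit of 24.41 was 62 bp from the tyrosine gene n-TYgta9 and also in the window of n-TAagc15. On chromosome 1 a summit of 23.48 lay inside the leucine gene n-TLcag3 and in the window of n-TGtcc2.

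By amino acid, 17 of 20 groups had a gene with a summit in its window, and 14 had one with a summit inside or within 100 bp. Each summit counted for its nearest gene only left 15 groups. Among tRNAs of small amino acids, glycine had 10 of 28 genes, 35.7% (exact interval 18.6 to 55.9), alanine 7 of 21 and serine 5 of 22. A summit lay inside the gene for 4 glycine, 3 alanine and 2 serine genes. Threonine had 2 of 17, n-TTagt7 and n-TTagt8, both through a summit that lay nearer to a serine gene. The window of n-TTagt8 also held a summit of 14.09 nearest to the isoleucine gene n-TIaat5. Proline had 1 of 15, n-TPagg3, through a summit of 18.78 inside its neighbour n-TKctt11.

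Among the aliphatic and methionine groups, leucine had 8 of 25 genes, 32.0% (14.9 to 53.5), isoleucine 4 of 16 and methionine 3 of 16. In windows of 250 bp the leucine count was 3 of 25, 12.0%. n-TMcat15 and n-TMcat16 had the summit inside the gene, with pileups of 20.66 and 11.27. The value at n-TMcat16 was the lowest of all 43. n-TMcat7 shared a summit of 15.02 with n-TGgcc7, 508 bp from the glycine gene. No valine gene had a summit, 0 of 21, which allows a share of up to 16.1%.

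Among the aromatic groups, tryptophan had 4 of 8 genes, 50% (15.7 to 84.3), and 2 of 8 in windows of 250 bp. Its members were n-TWcca5, n-TWcca6, n-TWcca7 with a summit of 19.72 inside the gene, and n-TWcca2 with 15.96 at a summit inside n-TDgtc16. Tyrosine had 3 of 10, n-TYgta9 and, on chromosome 3, n-TYgta1 and n-TYgta2, which share a summit of 16.9 inside n-TAagc14. Phenylalanine had 1 of 7, n-TFgaa6.

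Among charged amino acids, arginine had 6 of 23 genes, 26.1% (10.2 to 48.4), and aspartate 4 of 16. Glutamate had 3 of 20. Of these, n-TEctc10 had a summit of 19.72 inside the gene, n-TEttc6 one of 20.66 at 26 bp, and n-TEctc6 lay in the window of a summit of 15.02 nearest to n-TGtcc3. Lysine had 3 of 25: n-TKctt11 at 18.78, n-TKctt10 at 16.9 in the window of a summit nearest to n-TAtgc9, and n-TKctt29, which had summits of 16.9 at 583 bp and 12.21 inside the gene. Histidine had 1 of 11, n-THgtg4, with a summit of 13.15 at 40 bp.

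The amide groups had none, with 0 of 13 asparagine genes, which allows a share of up to 24.7%, and 0 of 15 glutamine genes, up to 21.8%. Cysteine, the largest group, had 2 of 57 genes, 3.51% (0.428 to 12.1). These were n-TCgca51, with a summit of 18.78 at 86 bp that is also 58 bp from an end of Lasp1, and n-TCgca52, with 15.96 at 535 bp. The summit counted for n-TCgca52 lay nearer to the start of Trmt61b than to the tRNA gene. Of the 57 genes, 49 form an array on chromosome 6 without a summit, and outside it cysteine had 2 of 8 genes, 25% (3.19 to 65.1). Most genes of the group thus lie in the array, and both genes with a summit are among the other 8. The interval for these 8 is wide and includes both the group's 3.51% and the 19.9% of all tRNA genes outside the array. No order of the 20 groups is read from these counts.

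**Figure D4:**
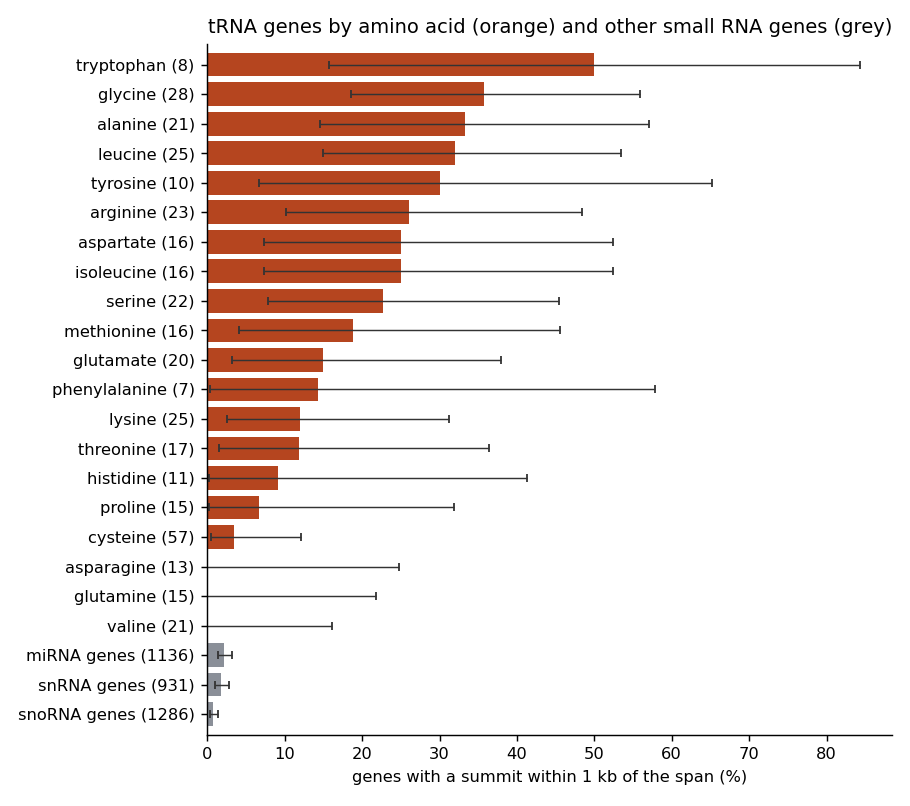
Share of genes (%) with a summit within 1 kb of the span for each amino acid (orange, number of genes in brackets) and for miRNA, snRNA and snoRNA genes (grey), with 95% exact intervals. Tryptophan stands at 50% with a wide interval, cysteine at 3.51%, and asparagine, glutamine and valine at 0.

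Within an amino acid the anticodons differed in count, with small numbers in each. Summits were found in windows of 30 of the 48 pairs of amino acid and anticodon. Among glycine genes, GCC had 6 of 14, TCC 3 of 7 and CCC 1 of 6. Among leucine genes, CAG had 5 of 10, AAG 2 of 5 and CAA 1 of 4, while TAA and TAG had 0 of 3 each. Alanine AGC had 3 of 13, and CGC and TGC had 2 of 4 each. The isoleucine anticodon TAT has 1 gene, n-TItat14, with a summit of 20.66 at 221 bp. For valine, AAC, CAC and TAC had none of 8, 11 and 2 genes. The intervals of anticodons for 1 amino acid overlapped in each of these cases.

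Genomic clusters, in which each gene lies within 10 kb of the next, held 286 genes in 61 clusters, and 100 genes were alone. Of lone genes 14 had a summit, 14.0% (7.87 to 22.4). In clusters of 2 to 4 genes the count was 26 of 97, 26.8% (18.3 to 36.8), and in clusters of 5 or more it was 27 of 189, 14.3% (9.63 to 20.1). Of the 39 clusters of 2 to 4 genes, 12 had a summit, and each of these held only 1, often counted for several genes. Lone genes with a summit had 1 each, so these shares do not compare numbers of summits. Of the 22 clusters of 5 or more, 12 with 107 genes in all had no summit in any window.

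On chromosome 11, between 69037003 and 69125248, 11 of 18 genes had a summit, 61.1% (35.7 to 82.7), from 5 summits with pileups of 14.09 to 26.29. In its first cluster 6 of 7 genes had a summit, led by n-TIaat5, n-TSaga4 and n-TTagt8 with the shared 25.35. In its last cluster 1 of 7 genes had one, n-TGgcc5, with 15.96 inside the gene and 67 bp from an end of Hes7, a Notch-pathway repressor gene of the segmentation clock. On chromosome 1, from 171033942, 9 of 26 genes had a summit. The 3 clusters there were led by n-TLcag3 and n-TGtcc2 at 23.48, by n-TLcag9 and n-TDgtc5 at 20.66, and by n-TLcag6 and n-TGgcc12 at 15.02.

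The largest family without summits lay on chromosome 6, where 49 cysteine genes stretch from 47978997 to 48363603. None had a summit, which allows a share of up to 7.25%. Without them the share of all tRNA genes was 19.9% and cysteine kept its 2 genes elsewhere. Chromosome 3 near 96 Mb had 0 of 25 genes, up to 13.7%. The major tRNA region of chromosome 13, from 21160785 to 23530419, had 10 of 104, 9.62% (4.71 to 17.0). Its clusters of 5 or more genes with a summit were led by n-TMcat15, n-TLaag7 and n-TLaag5 at 20.66, and by n-TIaat8 and n-TAcgc10 at 19.72. Near-identical copies can share reads, how such reads were placed is not stated in the labels, and their part in these zeros was not tested.

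**Figure D5:**
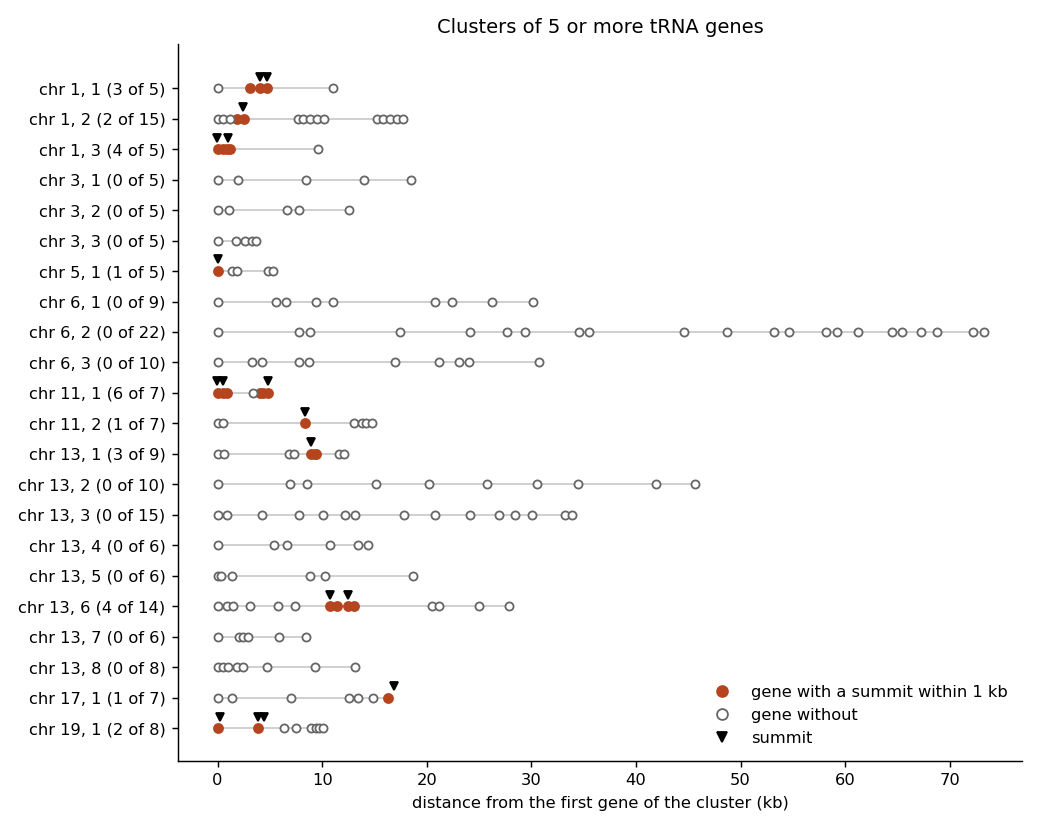
Clusters of 5 or more tRNA genes, each on a line from its first gene (kb), numbered along each chromosome, with genes filled where a summit lies within 1 kb and summits as triangles. The first chromosome 11 cluster and the chromosome 19 cluster hold the most summits, 3 each, and all genes of the chromosome 6 and chromosome 3 clusters are open.

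The remaining clusters of 5 or more with a summit were led by n-TAtgc10 on chromosome 5 with 17.84, n-TRccg2 on chromosome 17 with 19.72 and n-TFgaa6 on chromosome 19. At the edge of the windows, the outermost summits inside were 510, 535 and 583 bp from a gene, with pileups of 19.72, 15.96 and 16.9. The next summits outward were 1014 bp from n-TRcct1 with 30.99, 1189 bp from n-TVaac8 with 26.29 and 1218 bp from n-TRtct2 with 15.02. No summit lay between the 2 sets.

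Position relative to protein-coding genes went with the count. Among tRNA genes at most 1 kb from the end of a protein-coding gene, 18 of 47 had a summit, 38.3% (24.5 to 53.6), of which 11 had one inside or within 100 bp. Beyond 5 kb of such an end, 35 of 282 had a summit, 12.4% (8.80 to 16.8), of which 17 had one inside or within 100 bp. Without the chromosome 6 array and the chromosome 13 region, most of which are distant, the counts were 18 of 46, 39.1% (25.1 to 54.6), and 26 of 143, 18.2% (12.2 to 25.5), with intervals that overlap slightly. Of the 43 summits, 13 lay at most 1 kb and 24 more than 5 kb from the end of a protein-coding gene. Only the ends of the whole span were used, so starts inside a gene and starts of non-coding genes do not count. The 24 include the summits at n-TRccg2 and n-TCgca52, which fell in promoter windows of non-coding genes. Histone genes neighbour the tRNA genes of chromosome 13, and within 10 kb of a histone gene 2 of 9 tRNA genes had a summit, n-TGgcc7 and n-TMcat7.

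Other genes of the RNA polymerase III system were read in the same way, from lists of known members. Of 11 other polymerase III transcripts on autosomes, 3 had a summit, 27.3% (6.02 to 61.0), each inside the gene. The snRNA, snoRNA, miRNA and rRNA genes above, among which some of them are counted, had 0.778 to 2.11%. Others, Rn7s1 and Rn7s2 among them, are of kinds for which no share was counted. Bc1 and Vaultrc5 are listed as lncRNA genes, with 7.16%. Rn7s1 and Rn7s2, which encode 7SL RNA of the signal recognition particle, had pileups of 37.56 and 41.32 and folds of 9.64 and 13.7. Rn7sk, which encodes the 7SK RNA that restrains transcription elongation, had 12.21. Rmrp, Rpph1, Rny1, Rny3, Bc1, Vaultrc5, Rnu6 and Rn5s had none.

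Of genes for polymerase III subunits, 6 of 18 had a summit within 1 kb of the span, beside 17.3% of protein-coding genes as a whole. They were led by Crcp with 61.97, Polr3b with 28.17, Polr3gl with 24.41 and Polr3c with 19.72. Of factors and regulators 1 of 19 did, Bdp1, a TFIIIB subunit gene, with 28.17 deep inside the gene. Aminoacyl-tRNA synthetase genes, whose products load tRNAs with amino acids, had 10 of 39, led by Eprs with 51.65, Yars with 33.8, Lars with 22.54 and Wars2 with 21.6. Genes for tRNA processing and modification had 8 of 50, led by Trmt1 with 30.05, Thg1l with 28.17, Cdkal1 with 26.29 and Rpp21 with 25.35. The top summits of the genes named here lay from 68 bp (Polr3c) to 173270 bp (Cdkal1) from an end of their gene, with Crcp at 8188 bp. The exact intervals of all 4 lists of protein-coding genes include 17.3%.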

How the data were processed

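The authors deposited 1 peak list for the series, with start, end, width and summit of each peak, per the file headers. The deposited pileup is a signal at the summit after the caller's scaling, and the deposited fold enrichment is a ratio of it to the local background. The q-value column that the authors deposited is on the −log10 scale. The submitters' processing notes name Bowtie2 2.3.4.2, MACS2 2.1.1.20160309.0, GRCm38 and mm10. Whether fractions were pooled, and how reads with several matches were placed, is not stated in the labels. Peak names run to 7653, and 169 of these numbers are not among the peaks analysed here, so a gene without a summit may have had a peak among them. Depth per library was not used here.

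Summits were counted in each tRNA gene's span with 1 kb on both sides. Another 5 autosomal tRNA entries have other symbols and were left out. Local background was recovered as (pileup + 1) / fold − 1. Shares carry 95% exact (Clopper-Pearson) intervals, which treat genes as independent, and densities carry exact Poisson intervals. A share of 0 is given with its exact upper limit, and on chromosome X with 3 counts as its limit. Counting was tested on simulated summits. Members, gene lists, alternatives and the rule for named genes were chosen with earlier results of these data known. Named genes are the 15 of highest pileup, the genes with a summit in amino acid groups with fewer than 4, the leading genes of clusters of 5 or more, those at the window's edge and 4 per list. The distance classes used for densities (beside bins of 100 bp), the regions by chromosome, the sets by distance to protein-coding and histone genes and the densities of stronger peaks were chosen after values were seen. Smarcc2, Hes7, Lasp1, Wnt10a, genes in promoter windows and anticodon examples were named after their values were seen. Python 3.11.15, numpy 2.4.6, pandas 2.3.3, scipy 1.17.1 and matplotlib 3.10.9 were used.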

Additional observations from a re-analysis of the deposited data

How the results depend on the processing

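No paired analysis was possible because the list holds no value per library. For the same reason no fraction could be left out. The share of tRNA genes with a summit (17.4%) was 10.6% in windows of 250 bp, 8.81% of 100 bp, 5.18% in the gene alone and 25.9% in windows of 5 kb, which follows from the window's size. It was 10.9% with each summit given to its nearest gene only and 12.4% without genes nearer than 5 kb to the end of a protein-coding gene. With a −log10 q of at least 10 it was 2.85%, from 8 summits and 9 amino acids. Above the median fold it was 2.59%, from 7 summits and 8 amino acids, since most of these peaks are low. The gene alone held 20 of the 43 summits. The windows of 100 bp and of the gene alone, the nearest gene only, and the omission of the chromosome 6 array or of the highest peak were chosen after seeing the data. The other alternatives changed neither the count of summits nor that of amino acids by 1.5 times, and kept the ratio of median pileups in its direction. The cause of the change without genes near protein-coding ends was not tested. Among the shares by amino acid, leucine was 12.0% and aspartate 6.25% in windows of 250 bp, proline was 0 in windows of 250 and 500 bp, and arginine was 52.2% in windows of 5 kb. These values lay outside the exact interval of the same group's share in windows of 1 kb. The other shares outside theirs, all lower, were so at the stricter q or fold, where tryptophan was 12.5% and 0. Shares that stayed inside these wide intervals also changed with the window, in both directions. Phenylalanine rose from 1 of 7 genes to 3 of 7 in windows of 2 kb. Tryptophan fell from 4 of 8 genes to 2 of 8 in windows of 250 bp.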

Other observations

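On chromosome X, outside the autosomal set, none of 17 tRNA genes had a summit within 1 kb, which allows a share of up to 17.6%. Beyond the 1 kb windows but within 5 kb of a tRNA gene lay 8 summits, 4 of them from 1 to 2 kb. The highest were a pileup of 118.32 at 4202 bp from n-TGccc7, inside the protein-coding gene Wfikkn1, and one of 46.95 at 4704 bp from n-THgtg6. Both lie beyond any tRNA gene's window and were not counted above.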
